A study of Mus musculus with 6 samples.

Results

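Sertoli cells are the somatic cells of the seminiferous tubule, and 10 genes that mark their identity and secretory work were followed here in the testes of Nsun7-/- and WT mice. The genes are the transcription factors Wt1, Sox9, Gata1 and Rhox5, the secreted products Dhh, Amh, Inha and Clu, the hormone receptor Fshr and the tight junction protein Cldn11. They were taken by symbol from the gene tables, and all 10 were found among 34144 gene rows and were among the 21002 genes that passed the filter on low counts. None of the 10 passed edgeR's quasi-likelihood test of Nsun7-/- against WT testes at a Benjamini-Hochberg adjusted p of 0.05 over all tested genes. The same test called 119 of the 21002 genes, which is 0.567%, and a count of 0 among 10 genes is close to that background share.

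Sertoli cells enclose the germ cells at every stage, seal the inner compartment of the tubule with tight junctions, and answer to follicle-stimulating hormone and androgen. In the fetal testis SOX9, held up by WT1, sets the Sertoli fate, and the cells then secrete anti-Müllerian hormone and desert hedgehog. In the adult they feed germ cells, engulf the residual bodies shed by elongated spermatids and secrete inhibin and clusterin.

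The mice were 3 Nsun7-/- and 3 WT animals, all labelled C57Bl/6J and 3 months of age, with 1 library per mouse. Total RNA came from the seminiferous tubules of testes whose capsule had been taken off, so each library mixes Sertoli, germ, interstitial and tubule wall cells. In such bulk samples fewer cells of a type and less RNA per cell cannot be told apart. Nsun7 belongs to a family of RNA methyltransferases; how the allele was made, and which part of the gene it removes, is not given in the sources used here. Libraries held between 23480448 and 28558865 estimated counts. Nsun7 itself stood at 18.03, 17.8 and 25.2 CPM (counts scaled to library size) in Nsun7-/- mice 1, 2 and 3, against 36.6, 35.7 and 37.2 CPM in WT mice 1, 2 and 3, so its RNA was lower but present in every knockout library. Along the first principal component, with 35.5% of the variance, Nsun7-/- mouse 3 and WT mouse 1 lay at opposite ends, and WT mouse 1 was the one library with more than a trace of the epididymal gene Crisp1 (29.4 CPM). The levels given here are CPM scaled by edgeR's TMM factors, which compare 1 gene between libraries. Where TPM are named, the level is also divided by transcript length.

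Levels per length spanned the range from an abundant secreted protein to a scarce receptor. Averaged over the 6 libraries, Clu had 2208 TPM, Inha 230.3 TPM, Cldn11 193 TPM and Wt1 83.1 TPM. Gata1 followed with 29.5 TPM, Dhh with 29.2 TPM, Sox9 with 21.9 TPM, Rhox5 with 15.04 TPM, Amh with 8.72 TPM and Fshr with 3.04 TPM. Of the 9 neighbouring pairs in this order, 7 kept it in 6 of 6 libraries, with an exact sign-flip p of 0.03125 for each pair, the smallest that 6 libraries allow, and an adjusted p of 0.0402 over the 9 pairs. Inha lay above Cldn11 in 5 of 6 libraries (exact sign-flip p = 0.0625, adjusted p = 0.0703). Gata1 lay above Dhh in 2 of 6 (exact sign-flip p = 0.875), so these neighbours were not separated beyond their spread. The order was set by the means of these same 6 libraries, with both genotypes together. The p-values thus describe how well it repeated among them and are no independent test of it. Dhh shares exons with Rhebl1 on the same strand and with the antisense gene Gm49442 in GENCODE M21, and the counting is not stated to use strand, so its level is uncertain. None of the other 9 genes overlaps an annotated gene there.

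The identity factors Wt1, Sox9 and Gata1 did not pass the test, and Wt1 was the most even of all 10 genes in CPM. Wt1, a zinc finger factor that the gonadal ridge needs and that keeps adult Sertoli cells from changing fate, had 118.5, 114.6 and 116.2 CPM in Nsun7-/- mice 1, 2 and 3, against 118.0, 113.8 and 114.9 CPM in WT mice 1, 2 and 3. On this scale the genotypes overlapped and no library stood out. The coefficient of variation over the 6 libraries was 1.66%, where counting error alone allows 1.82%, and the other 9 genes ran from 9.98% for Cldn11 to 24.1% for Amh. Wt1 averaged 116 ± 1.99 CPM in Nsun7-/- and 116 ± 2.17 CPM in WT testes (SD, n = 3 each), with a log2 fold change of 0.01 and a 95% interval from -0.22 to 0.24 (adjusted p = 0.981).

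Sox9, the factor that starts and holds Sertoli differentiation, had 78.5, 70.3 and 59.7 CPM in Nsun7-/- mice 1, 2 and 3, against 85.8, 74.3 and 71.8 CPM in WT mice 1, 2 and 3. The lowest library was Nsun7-/- mouse 3 and the highest WT mouse 1, with the other 4 mixed between them. Its log2 fold change was -0.15 ± 0.13 (SE), with a 95% interval from -0.43 to 0.13 and an adjusted p of 0.728. Gata1, which Sertoli cells express in step with the cycle of the tubule, had 35.6, 39.3 and 24.4 CPM in Nsun7-/- mice, against 39.0, 44.3 and 38.1 CPM in WT mice. Nsun7-/- mouse 3 was again lowest, while Nsun7-/- mouse 2 lay above WT mice 1 and 3. The log2 fold change of Gata1 was -0.29 ± 0.16 (SE), with an interval from -0.64 to 0.06 and an adjusted p of 0.641.

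**Figure D1:**
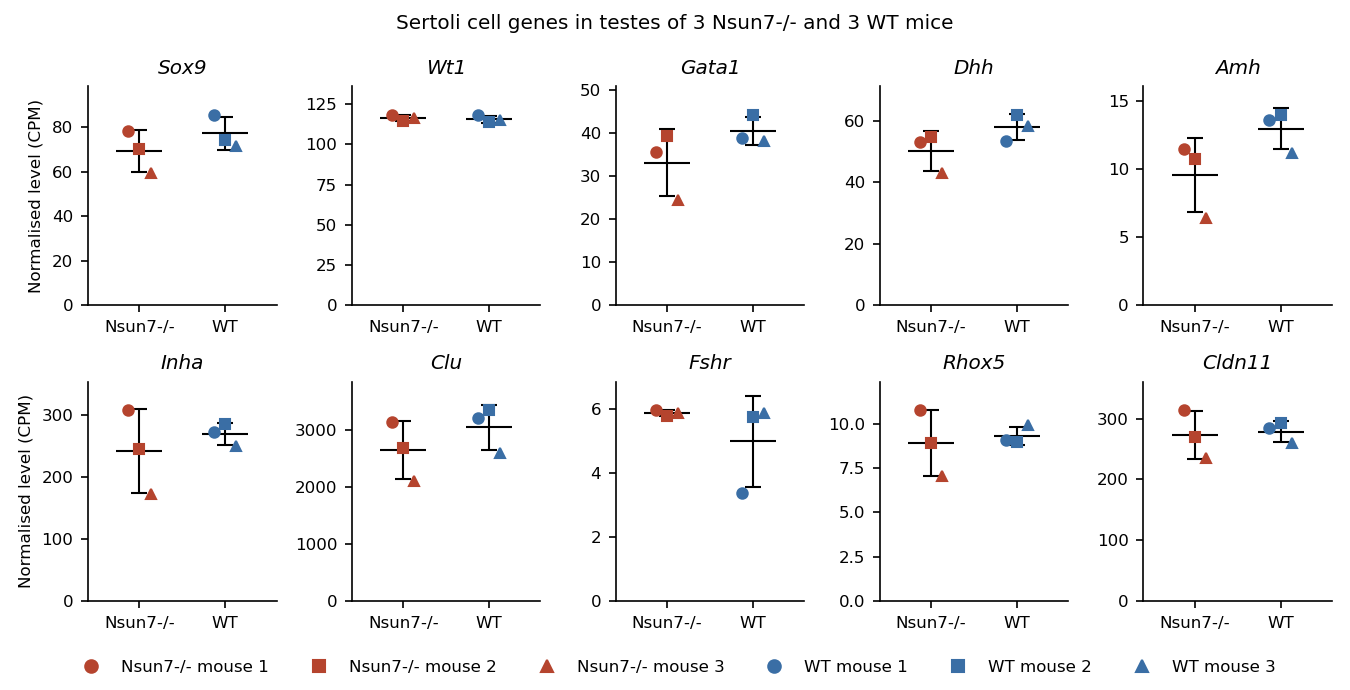
TMM-scaled CPM (y axis, from 0, one scale per gene) of the 10 Sertoli genes in each library, with Nsun7-/- mice left of WT mice; bars are the mean and SD of 3 mice. Nsun7-/- mouse 3 (red triangle) is the lowest library in 8 of the 10 panels, and the genotypes overlap in all 10.

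WT1 protein exists in forms with and without the 3 residues lysine, threonine and serine (KTS) between its last zinc fingers, made by a choice between neighbouring splice sites. The form without KTS binds DNA in a sequence-specific way and the form with it is known for binding RNA, and the balance between them matters for sex determination. The choice adds 9 bases, which lie at chr2:105170010-105170018 on the plus strand of GRCm38. The bases around the junction are shown because they define the classes counted next; capitals mark the added bases, and both runs are from the GENCODE M21 transcripts.
with KTS: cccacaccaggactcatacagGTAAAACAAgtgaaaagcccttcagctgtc
without KTS: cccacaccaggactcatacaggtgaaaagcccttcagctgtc

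Of the coding Wt1 transcripts in the files, 4 carry the 9 bases and 2 lack them. The share of coding Wt1 TPM on the transcripts without KTS was 43.6%, 54.8% and 57.1% in Nsun7-/- mice 1, 2 and 3, against 46.6%, 48.2% and 52.9% in WT mice 1, 2 and 3. The lowest share and the 2 highest were all in Nsun7-/- libraries, so the genotypes overlapped. The means were 51.8 ± 7.20% in Nsun7-/- and 49.2 ± 3.27% in WT testes (SD, n = 3 each), a difference of 2.58 percentage points (two-sided exact permutation p = 0.7, where 3 against 3 cannot go below 0.1). Without Nsun7-/- mouse 3 the difference was -0.04 points. The share of estimated counts, which are not divided by transcript length, was lower in both genotypes. It was 38.5 ± 3.70% in Nsun7-/- and 38.1 ± 1.73% in WT testes (SD, n = 3 each, exact permutation p = 0.8). A second choice, the cassette exon 5 of 51 bases, was included in 27.96 ± 2.49% of coding Wt1 TPM in Nsun7-/- and 25.8 ± 1.25% in WT testes (SD, n = 3 each; exact permutation p = 0.3). These shares are kallisto's division of reads among transcripts, and they carry that division's error as well. The splice choices are of 9 and 51 bases, but the coding transcripts also differ in length, from 1220 to 3090 bases. Most of the share without KTS sat on the transcript of 1418 bases, and most of the exon 5 share on that of 3090 bases. Reads outside the splice choices can thus bear on both shares, and how far they did was not tested.

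**Figure D2:**
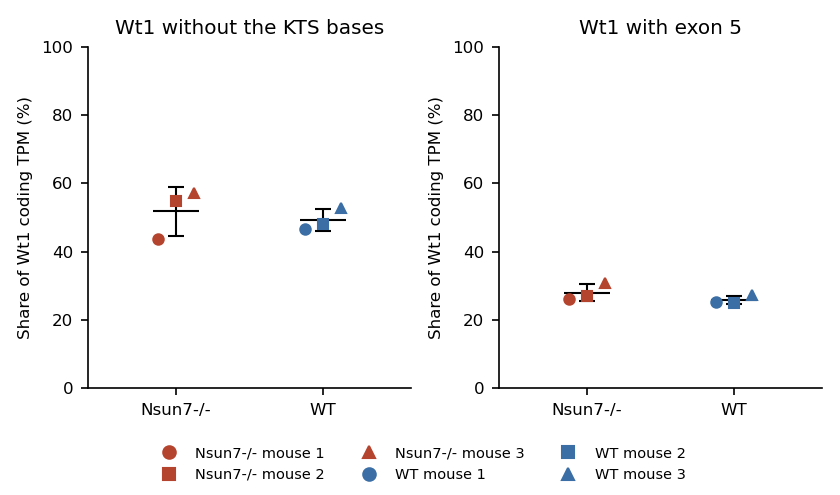
Share of coding Wt1 TPM (y axis, %) on transcripts without the KTS bases (left panel) and on transcripts with exon 5 (right panel), with 1 point per mouse and bars for the mean and SD of 3 mice. The shares without KTS run from 43.6% to 57.1% in Nsun7-/- and from 46.6% to 52.9% in WT mice, and the genotypes overlap in both panels.

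The secreted products Amh, Inha, Clu and Dhh averaged lower in Nsun7-/- than in WT testes, and none of them passed the test. Amh encodes anti-Müllerian hormone, which is high before puberty and kept low by androgen in the adult. It had 11.4, 10.8 and 6.44 CPM in Nsun7-/- mice 1, 2 and 3, against 13.6, 14.0 and 11.2 CPM in WT mice 1, 2 and 3. Nsun7-/- mouse 3 stood far below the other 5 libraries, and Nsun7-/- mouse 1 lay just above WT mouse 3. Amh averaged 9.55 ± 2.71 CPM in Nsun7-/- and 12.9 ± 1.51 CPM in WT testes (SD, n = 3 each), which is 0.735 of the WT level with a 95% interval from 0.547 to 0.988. On the log2 scale this is -0.44 ± 0.20 (SE), with an unadjusted edgeR p of 0.0424 and an adjusted p of 0.578. It was 1 of the 10 genes with an unadjusted p under 0.05, a mark that 8.39% of all tested genes reached. Without Nsun7-/- mouse 3 the log2 fold change of Amh was -0.23 (adjusted p = 0.783).

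Inha encodes the alpha subunit of inhibin, through which Sertoli cells restrain pituitary FSH. Its level was 307, 245 and 172 CPM in Nsun7-/- mice, against 271, 285 and 249.8 CPM in WT mice. The highest and the lowest library were both Nsun7-/-, mice 1 and 3, and the 3 WT libraries lay between them. The means were 241 ± 67.3 CPM in Nsun7-/- and 269 ± 17.6 CPM in WT testes (SD, n = 3 each), with a log2 fold change of -0.16 ± 0.17 (SE; edgeR adjusted p = 0.786).

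Clu encodes clusterin, a chaperone and lipid carrier that Sertoli cells secrete in quantity, and was the most abundant of the 10. Nsun7-/- mice 1, 2 and 3 had 3149, 2699 and 2117 CPM, against 3216, 3352 and 2610.0 CPM in WT mice 1, 2 and 3. WT mouse 3 was below Nsun7-/- mice 1 and 2, so the genotypes overlapped, and Nsun7-/- mouse 3 was lowest. The log2 fold change was -0.20 ± 0.17 (SE), with an interval from -0.56 to 0.15 (edgeR adjusted p = 0.716). Dhh, the hedgehog ligand that Sertoli cells send to Leydig and peritubular cells, had 52.9, 54.8 and 42.9 CPM in Nsun7-/- mice, against 53.4, 62.0 and 58.3 CPM in WT mice. Nsun7-/- mouse 2 lay above WT mouse 1 and Nsun7-/- mouse 3 was lowest of all. Its log2 fold change was -0.21 ± 0.13 (SE; edgeR adjusted p = 0.663).

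Fshr was the one gene of the 10 besides Wt1 with a log2 fold change above 0. Fshr, the receptor for follicle-stimulating hormone that Sertoli cells carry in the testis, had 5.94, 5.77 and 5.86 CPM in Nsun7-/- mice 1, 2 and 3, against 3.35, 5.74 and 5.86 CPM in WT mice 1, 2 and 3. All but WT mouse 1 lay within a narrow band, and that library held 74 Fshr counts, where the other 5 held between 147 and 181. The log2 fold change of 0.23 ± 0.21 (SE; edgeR adjusted p = 0.745) was 0.0044 without WT mouse 1. Rhox5, a homeobox gene on the X chromosome that androgen switches on in Sertoli cells, had 10.8, 8.92 and 7.05 CPM in Nsun7-/- mice, against 9.10, 8.96 and 9.90 CPM in WT mice. Its highest and lowest libraries were both Nsun7-/-, and the log2 fold change was -0.07 ± 0.17 (SE; edgeR adjusted p = 0.914).

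Cldn11, the claudin that forms the tight junction strands of the blood-testis barrier, had 313, 269 and 235 CPM in Nsun7-/- mice, against 284, 292 and 259 CPM in WT mice. Nsun7-/- mouse 1 was highest and Nsun7-/- mouse 3 lowest, with the WT libraries inside that range. The mean was 272 ± 39.5 CPM in Nsun7-/- and 278 ± 17.2 CPM in WT testes (SD, n = 3 each), and the log2 fold change was -0.03 with a 95% interval from -0.31 to 0.25 (edgeR adjusted p = 0.953).

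Over the 10 genes, 2 had a log2 fold change above 0, Wt1 and Fshr, while 52.5% of all tested genes did. The median of the 10 was -0.15, and that of all tested genes was 0.01. For none of the 10 did the CPM of the genotypes fail to overlap, which happened for 14.3% of all genes, and for 6.95% with Nsun7-/- lower. Two-sided exact permutation tests on the CPM gave p from 0.2 to 0.9. The 95% intervals differed in width between the genes, from -0.22 to 0.24 on the log2 scale for Wt1 to between -0.21 and 0.67 for Fshr. DESeq2 called 213 genes over the whole table and 0 of the 10.

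Nsun7-/- mouse 3 was the lowest of the 6 libraries for 8 of the 10 genes, all but Wt1 and Fshr, where 28.8% of all tested genes were lowest in it. Averaged over the 10 genes, the log2 deviation from each gene's mean was 0.12, 0.00 and -0.33 in Nsun7-/- mice 1, 2 and 3, against 0.04, 0.15 and 0.03 in WT mice 1, 2 and 3. Nsun7-/- mouse 3 was thus the one library with a negative average. With it left out, 5 of the 10 genes were above 0 and their median log2 fold change was -0.03; Rhox5 then stood at 0.07, Cldn11 at 0.06 and Inha at 0.03. With WT mouse 1 left out as well, the library at the other end of the first principal component, 6 of the 10 were above 0 and the median was 0.02.

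Base composition moved with this library. Across 19624 tested genes with a GENCODE M21 transcript, the log2 deviation of Nsun7-/- mouse 3 had a Spearman correlation of -0.51 with GC content, against 0.20 and 0.06 in Nsun7-/- mice 1 and 2 and between 0.08 and 0.25 in the WT mice. These correlations are across genes of 1 library, and genes are not independent replicates. In Nsun7-/- mouse 3 the median deviation was 0.26 in the eighth of genes with the lowest GC content and -0.27 in the eighth with the highest. The median GC content of the 10 Sertoli transcripts was 55.4%, against 51.2% over all these genes, and the most GC-rich of the 10 was Amh at 65.4%. Among all genes at or above the Sertoli median, 58.7% were lowest in Nsun7-/- mouse 3.

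With each library's GC trend taken out as an offset, an alternative added after this trend was seen, 115 of 19624 genes were called, which is 0.586%, and 0 of the 10 Sertoli genes. Amh then had a log2 fold change of -0.32 with an interval from -0.66 to 0.02 (edgeR adjusted p = 0.606), Gata1 of -0.25, Sox9 of -0.21, Clu of -0.15 and Dhh of -0.13. Cldn11 was at -0.07, Inha at -0.06, Rhox5 at -0.09, Wt1 at 0.07 and Fshr at 0.14, so the signs of all 10 stayed as they were. Nsun7-/- mouse 3 was still the lowest library for 8 of the 10 genes once the trend was removed, where 26.6% of all genes were lowest in it. Wt1, the most even gene in CPM, then deviated by 0.14 in Nsun7-/- mouse 3 and by -0.062 to -0.0055 in the other libraries.

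**Figure D3:**
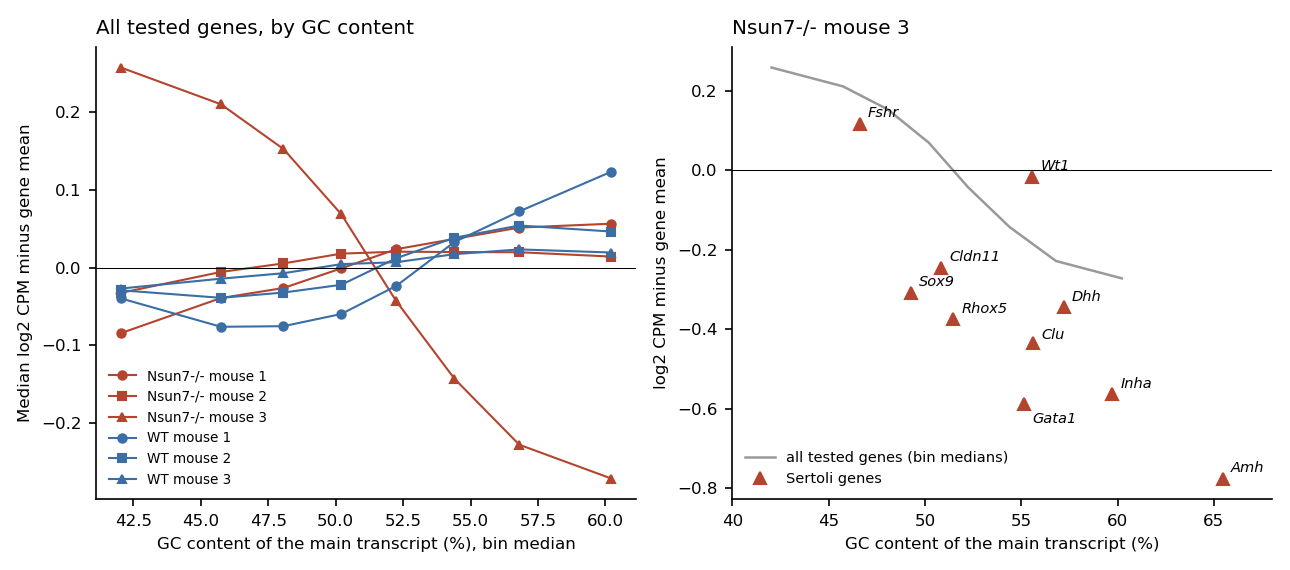
Left, median log2 CPM deviation from the gene mean (y axis) of all tested genes in 8 bins of GC content (x axis, %), with 1 line per library. Right, the deviation of the 10 Sertoli genes in Nsun7-/- mouse 3 (triangles) against GC content, with the line of all genes; that line falls to -0.27 in the GC-richest bin, Wt1 lies above it, and Amh lies lowest, beyond its right end.

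The deposited TPM put the same genes on a different scale. The RNA Rmrp alone took 17.5%, 12.9% and 11.4% of TPM in Nsun7-/- mice 1, 2 and 3, against 33.3%, 22.2% and 15.7% in WT mice 1, 2 and 3, and the median gene moved by 0.25 towards Nsun7-/- on the log2(TPM + 1) scale. On that scale 9 of the 10 Sertoli genes were above 0, all but Amh, with a median of 0.14. Relative to the median gene, 7 of the 10 were below it and Wt1, Fshr and Cldn11 above it. Sox9, Wt1 and Cldn11 had TPM higher in every Nsun7-/- than in every WT library. Cldn11, for example, had 218, 204 and 209 TPM in Nsun7-/- mice, against 145, 189.7 and 191 TPM in WT mice. The gap was narrow for Sox9 (lowest Nsun7-/- library 22.79 TPM, highest WT library 22.66 TPM) and for Wt1 (86.02 and 86.01 TPM). How many of all genes did not overlap on TPM was not counted. With each library centred on its median, 1 of the 10 was above 0, Fshr, and the median was -0.15, where that of all genes was -0.04. None of the 10 was called by limma on any of these TPM scales.

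**Figure D4:**
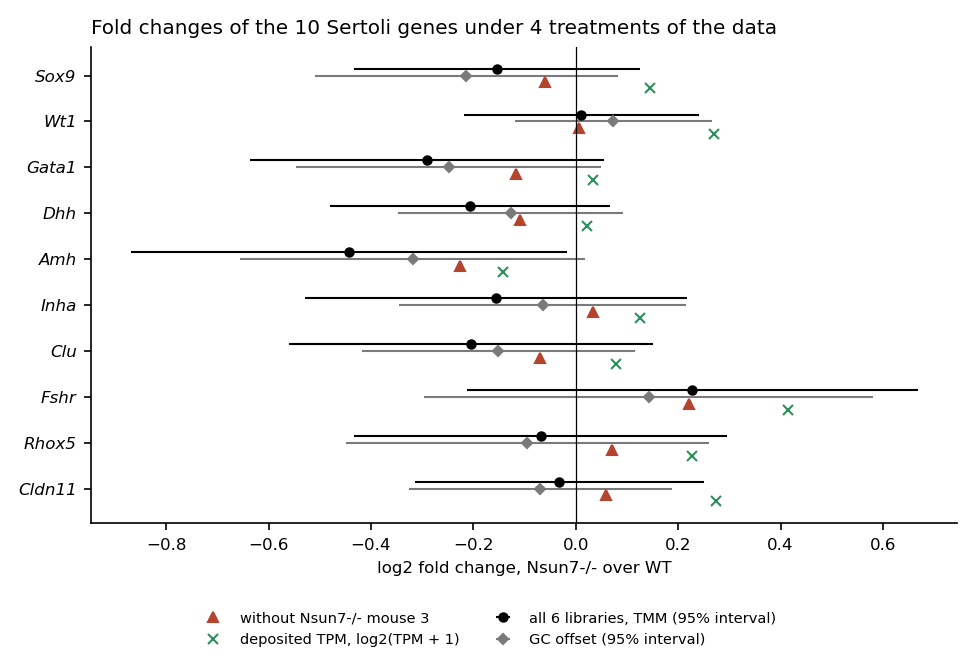
Log2 fold change of Nsun7-/- over WT (x axis) of each Sertoli gene from all 6 libraries with TMM scaling (black, 95% interval), with the GC offset (grey, 95% interval), without Nsun7-/- mouse 3 (triangles) and on deposited log2(TPM + 1) (crosses). Amh lies left of 0 and Fshr right of 0 under all 4, and the crosses of 9 genes lie right of 0.

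No single annotated transcript of the 10 genes passed the test either. Of 29 transcripts, 27 passed the filter on low counts and 0 were called, where 16 of 58773 were called over the whole table, which is 0.0272%. An unadjusted p under 0.05 was reached by 2 of the 27, both minor transcripts of Clu, and by 4.76% of all tested transcripts. Sox9, Amh, Fshr, Cldn11 and Inha have 1 transcript each in the files. Most Clu TPM, 88.2%, sat on Clu-201, with 74475, 68954 and 61771 estimated counts in Nsun7-/- mice and 65779, 82163 and 64966 in WT mice.

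Among the minor Clu transcripts, Clu-203 had 64, 71 and 100 counts in Nsun7-/- mice 1, 2 and 3, against 19, 52 and 41 counts in WT mice 1, 2 and 3 (log2 fold change 0.91, edgeR unadjusted p = 0.0371, adjusted p = 0.932). The other with an unadjusted p under 0.05, of 632 bases, had 14, 22 and 24 counts in Nsun7-/- mice, against 8, 4 and 7 counts in WT mice (log2 fold change 1.44, edgeR unadjusted p = 0.0282, adjusted p = 0.932). In these counts, which are not scaled to library size, neither overlapped between the genotypes. Both were highest in Nsun7-/- mouse 3, the library with the most counts in all. The share of all transcripts without overlap is not given here. Clu-208, a retained intron form, had 1886, 536 and 867 counts in Nsun7-/- mice 1, 2 and 3, against 4343, 2801 and 1082 counts in WT mice 1, 2 and 3, with a log2 fold change of -1.49 ± 0.70 (SE; edgeR adjusted p = 0.932 over all transcripts). For Clu-208 Nsun7-/- mouse 1 lay above WT mouse 3, so the genotypes overlapped. Clu-202 had 39, 54 and 444 counts in Nsun7-/- mice, against 29, 0 and 0 counts in WT mice, and Clu-205 had 15, 59 and 448 counts in Nsun7-/- mice, against 13, 52 and 44 counts in WT mice. The high value of both was in Nsun7-/- mouse 3 alone. The same library led the longer retained intron form of Wt1, of 2810 bases, with 186, 217 and 419 counts in Nsun7-/- mice, against 133, 180 and 175 counts in WT mice (log2 fold change 0.55, edgeR adjusted p = 0.932).

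Upstream sequence was at hand for 6 of the 10 genes (Inha, Cldn11, Dhh, Fshr, Gata1 and Rhox5), as the 250 bases before the RefSeq start on GRCm38.p6. They were searched on both strands for the palindromic E-box CACGTG, bound by USF factors, the half-site AGGTCA bound by SF1, the GATA word TGATAA with its variants that begin in A or end in G (AGATAA as one of them), the SOX word AACAAT or its partner word ACAAAG, and the CRE half-site TGACG. Fshr and Inha, the receptor for FSH and the subunit of the hormone that restrains it, are shown because each held a match to an element of the kind that rodent studies tie to its regulation, set in capitals.
Fshr, chr17:89200676-89200925, minus strand: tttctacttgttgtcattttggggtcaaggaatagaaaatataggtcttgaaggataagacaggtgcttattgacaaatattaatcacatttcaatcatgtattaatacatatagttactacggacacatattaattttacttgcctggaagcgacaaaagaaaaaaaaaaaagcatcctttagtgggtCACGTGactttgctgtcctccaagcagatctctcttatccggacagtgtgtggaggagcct
Inha, chr1:75507359-75507608, plus strand: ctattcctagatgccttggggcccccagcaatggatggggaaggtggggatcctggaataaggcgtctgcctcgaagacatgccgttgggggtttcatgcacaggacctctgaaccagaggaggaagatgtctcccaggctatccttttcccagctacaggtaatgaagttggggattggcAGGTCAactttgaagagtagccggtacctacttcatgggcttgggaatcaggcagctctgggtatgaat

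The E-box of Fshr starts at -61 and the SF1 half-site of Inha at -69 relative to the RefSeq start. Of 32851 mouse promoter windows of this length, 6.02% hold CACGTG and 14.0% hold AGGTCA. Rhox5 held 1 SOX word, at -227, which 24.0% of windows hold, and no window of the 6 held a GATA word or TGACG, found in 26.5% and 17.8% of all windows. Each match is a description of letters and not a measured binding site.

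Beyond the 10 genes, 10 lists of other genes of Sertoli cells and their signals held 115 genes, of which 110 were tested. Only Kitl and Cxcl12 rose and 0 fell, which is 1.82% of the 110 beside 0.567% of all tested genes, of which 0.233% were called higher and 0.333% lower. The median log2 fold change of the 110 was -0.04, and 51 of them (46.4%) were above 0. Genotypes did not overlap in CPM for 24 of them (21.8%, beside 14.3% of all tested genes), and 14 (12.7%, beside 8.39%) had an unadjusted p under 0.05. Of the 110, 53 were lowest in Nsun7-/- mouse 3, a larger share than the 28.8% of all tested genes.

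Both rises were in the list of secreted products, in which 2 of 16 tested genes rose and 0 fell (median log2 fold change 0.07). Cxcl12 encodes a chemokine that helps hold spermatogonial stem cells near the tubule wall. It had 35.6, 27.4 and 29.8 CPM in Nsun7-/- mice 1, 2 and 3, against 16.5, 18.5 and 17.0 CPM in WT mice 1, 2 and 3. The lowest Nsun7-/- library was well above the highest WT one, and the log2 fold change was 0.83 ± 0.14 (SE; edgeR adjusted p = 0.00937). Its call was lost without WT mouse 1 (adjusted p = 0.107) or WT mouse 3 (0.0695) and on all 4 TPM scales (0.0818 to 0.41).

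Kitl encodes stem cell factor, the ligand that differentiating spermatogonia and Leydig cells read through KIT. Its level was 11.2, 10.4 and 13.9 CPM in Nsun7-/- mice 1, 2 and 3, against 6.70, 5.85 and 6.94 CPM in WT mice 1, 2 and 3. The genotypes did not overlap, and the log2 fold change was 0.87 ± 0.16 (SE; edgeR adjusted p = 0.0253). The call was lost without Nsun7-/- mouse 3 (adjusted p = 0.0532), WT mouse 1 (0.12), WT mouse 2 (0.169) or WT mouse 3 (0.0852), without both Nsun7-/- mouse 3 and WT mouse 1 (0.093), with voom (0.0531) and on all 4 TPM scales (0.151 to 0.447). Inhbb, the partner of Inha in inhibin B, is in the same list and averaged 118 ± 9.39 CPM in Nsun7-/- and 131 ± 8.53 CPM in WT testes (SD, n = 3 each; edgeR adjusted p = 0.704).

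The other lists held no called gene. Among 12 further transcription factors, 4 were above 0 and the median log2 fold change was -0.13. Of these the smallest p belonged to Emx2, needed for the early gonad, at -0.66 (edgeR adjusted p = 0.532) and to Dmrt1, which guards male fate in Sertoli cells and is also expressed in spermatogonia, at -0.29 (edgeR adjusted p = 0.566). Dmrt1 had 66.3, 61.5 and 54.7 CPM in Nsun7-/- mice, against 82.9, 74.0 and 66.9 CPM in WT mice, with no overlap. Among 14 genes of the blood-testis barrier and the ectoplasmic specialization, 6 were above 0 and the median was -0.08. The claudin Cldn3 had 35.4, 37.9 and 25.9 CPM in Nsun7-/- mice, against 57.7, 43.9 and 40.5 CPM in WT mice (log2 fold change -0.52, edgeR adjusted p = 0.342), and the actin bundler Espn was at -0.34 (edgeR adjusted p = 0.568). Cldn3 and Emx2 each share exons with an antisense gene in GENCODE M21. The same holds for Elmo1, Irx3, Foxo1, Ncam1 and Cftr, which are named below. Tgfbr3, Foxl2, Krt8 and Pax8 share exons with another annotated gene there, so the levels of all these genes are uncertain.

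In the list of androgen and FSH response, 6 of 12 were above 0 with a median of 0.00. Esr1, the estrogen receptor alpha, which Leydig cells also express, had 15.8, 13.7 and 12.7 CPM in Nsun7-/- mice 1, 2 and 3, against 7.70, 9.69 and 7.94 CPM in WT mice 1, 2 and 3. The genotypes did not overlap, but its log2 fold change of 0.73 ± 0.15 (SE) just missed the threshold (edgeR adjusted p = 0.0545). It passed without the low-count filter (0.0232), without Nsun7-/- mouse 3 (0.0333), with the GC offset (0.0303) and with DESeq2 (0.008). Esr1 stayed uncalled with RLE or upper quartile scaling in place of TMM (edgeR adjusted p = 0.0589 and 0.0559). The same held with a filter at a mean of 1 CPM (0.0516) and on every TPM scale.

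Uptake of residual bodies and dying germ cells was covered by 8 genes, 4 of them above 0 (median -0.02), with the smallest p for Elmo1 (0.24, edgeR adjusted p = 0.607) and the receptor kinase Tyro3 (-0.23, adjusted p = 0.656). Of 10 retinoid genes 4 were above 0 (median -0.17). Aldh1a1, a retinaldehyde dehydrogenase found in Sertoli and Leydig cells, was at 0.56 (edgeR adjusted p = 0.248) and the retinol transporter Stra6 at -0.38 (adjusted p = 0.58). Lactate and glucose supply, 8 genes, had 3 above 0 (median -0.01), with the aminotransferase Got1 at 0.31 (edgeR adjusted p = 0.614) and the lactate exporter Slc16a3 at 0.17 (adjusted p = 0.747). The receptors and targets of AMH, DHH, activin and inhibin, 18 genes, had 10 above 0 (median 0.01), with the inhibin co-receptor Tgfbr3 at 0.28 (edgeR adjusted p = 0.603).

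Of 10 genes of the ovarian granulosa side, 8 were tested and 4 were above 0. Foxl2, Rspo1, Esr2, Irx3 and Bmp2 averaged under 1 CPM, while Foxo1 averaged 24.2 CPM in Nsun7-/- and 23.9 CPM in WT testes. Wnt4 was at 0.79 and Esr2 at -0.91, on few counts (edgeR adjusted p = 0.532 and 0.59). Of 8 genes that mark immature Sertoli cells 7 were tested and 3 were above 0, with the smallest p for the keratin Krt8 (-0.40, edgeR adjusted p = 0.64) and Ncam1 (-0.18, adjusted p = 0.689).

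**Figure D5:**
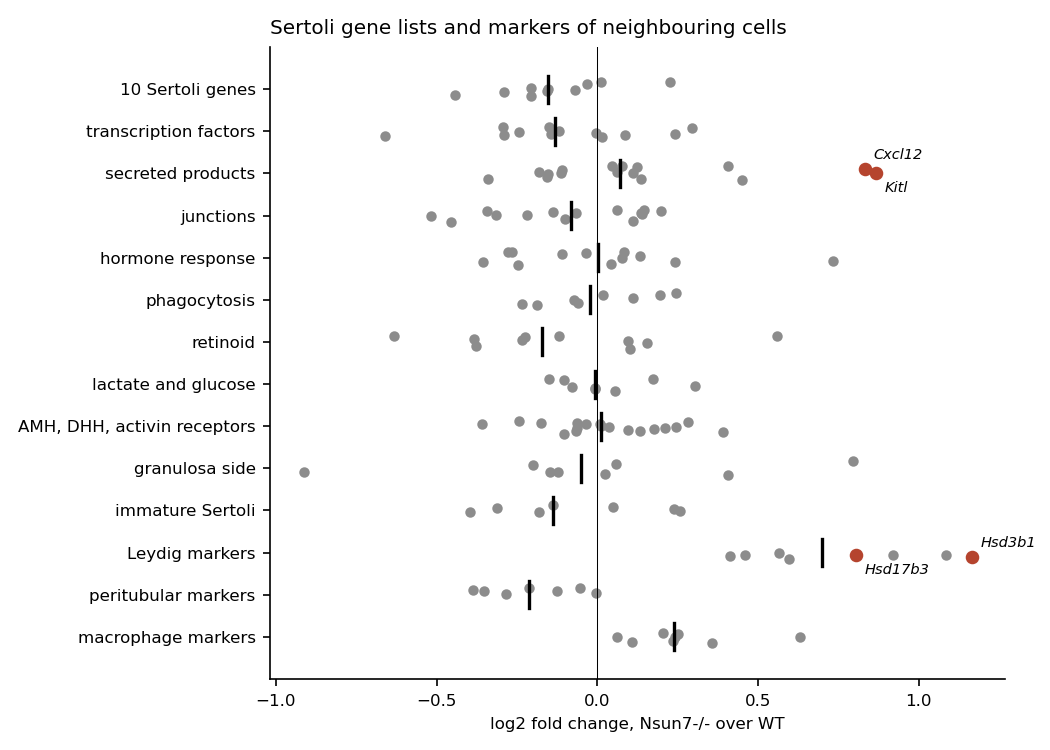
Log2 fold change of Nsun7-/- over WT (x axis) for each tested gene of the 10 Sertoli genes, 10 wider lists and 3 marker lists of neighbouring cells, 1 row per list, with a bar at each median. Named red points passed the edgeR test; Kitl and Cxcl12 lie at 0.87 and 0.83, and the Leydig median is at 0.70.

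Markers of neighbouring cells also differed between the libraries. The summed CPM of 8 Leydig markers ran from 2222 to 4958 in Nsun7-/- and from 1762 to 2900.1 in WT mice, highest in Nsun7-/- mouse 1; 8 of 8 were above 0 (median log2 fold change 0.70) and 2 of them rose, the steroidogenic enzymes Hsd3b1 (1.17, edgeR adjusted p = 0.00345) and Hsd17b3 (0.80, adjusted p = 0.0182). Hsd3b1 lost its call with the GC offset (0.066). Hsd17b3 lost its call without Nsun7-/- mouse 2 (0.0928), WT mouse 1 (0.143) or WT mouse 2 (0.0853), and on 3 of the 4 TPM scales (0.0818 to 0.443). The sum of 7 peritubular markers ran from 610.1 to 729 CPM in Nsun7-/- and from 754 to 793 CPM in WT mice, with 0 of 7 above 0 (median -0.21) and none called. For 8 macrophage markers the sums ran from 185 to 289 CPM in Nsun7-/- and from 174 to 221 CPM in WT mice, with 8 of 8 above 0 and none called. The sum of 6 markers of the rete, efferent ducts and epididymis ran from 16.0 to 24.9 CPM in Nsun7-/- and from 17.8 to 47.6 CPM in WT mice, highest in WT mouse 1. Most of that highest sum was Crisp1, a secreted protein of the epididymis, which had 29.4 CPM in WT mouse 1 and at most 0.162 CPM in the other 5 libraries. The kidney and duct factor Pax8 had 1.31 CPM in WT mouse 1 and at most 0.445 CPM elsewhere, and Pax2 had 6.79 CPM and at most 6.64 CPM elsewhere. Cftr went the other way, lowest in WT mouse 1 (8.56 CPM) and highest in Nsun7-/- mouse 3 (18.3 CPM). Defb30 had 1.49 CPM in WT mouse 1, below Nsun7-/- mouse 3 (1.62 CPM) and WT mouse 3 (1.73 CPM). Lcn5 was at 0 in all libraries, and none of the 3 tested genes of this list was called. WT mouse 1 is also the library with the low Fshr value, and one of those whose removal ended the calls of Kitl and Cxcl12. The part of these cells in the values of Kitl, Cxcl12, Esr1, Aldh1a1 or the 10 Sertoli genes was not tested.

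The genes whose log2 CPM ran most like the mean of the 10 Sertoli genes over the 6 libraries were sought among 14666 tested genes with a mean of at least 1 CPM. They were Pex5, Dpp3, Borcs5, Rnf114 and Serf2, with Pearson correlations from 0.995 to 0.999 and Spearman correlations from 0.94 to 1. Over so few libraries 406 genes reached a Pearson correlation above 0.95. All 5 were lowest in Nsun7-/- mouse 3: Pex5, a peroxisomal import receptor, had 144, 135 and 107 CPM in Nsun7-/- mice 1, 2 and 3, against 137, 148 and 135 CPM in WT mice 1, 2 and 3. The correlation is a description over 6 libraries, which the 5 genes and the Sertoli genes share.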

How the data were processed

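RNA of testes from 3 Nsun7-/- and 3 WT mice was depleted of ribosomal and globin RNA and made into libraries with the NEBNext Ultra II RNA kit, per the labels' protocols. The submitters' processing notes name kallisto 0.50.1 and mm39. Neither the strand setting nor the annotation release is given in the sources used here. Deposited by the authors were estimated counts per gene symbol as whole numbers, estimated counts per transcript, and TPM, which are scaled for length and to a fixed total per library. The gene counts of the 10 genes matched the summed transcript estimates within 0.5 counts, except Rhox5 (7.57). No column of other samples was present (0).

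Tests used edgeR 4.0.16 in R 4.3.3, on the gene counts and on rounded transcript estimates: TMM scaling, filterByExpr by genotype (minimum count 10, minimum total 15), the robust quasi-likelihood test with genotype as the sole term, and Benjamini-Hochberg adjustment over all rows tested, at 0.05. Each SE was taken as the log2 fold change over the root of its F statistic. A positive log2 fold change is higher in Nsun7-/-. limma 3.58.1 and DESeq2 1.42.0 served as alternatives, limma on log2(TPM + 1) for TPM, which understates changes of low genes. The tests were checked on simulated counts. Common variation between mice (edgeR's BCV) came to 14.9%. GC content and overlaps came from GENCODE M21, an annotation of GRCm38, taken by transcript and gene name only (93.4% of tested genes had a value, from their most abundant matched transcript). Coordinates printed with sequences are GRCm38 and are not those of the deposited files.

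The 10 genes, the tests, the wider lists and which genes to name (all 10; the 2 of smallest p in each list; the 5 most alike) were chosen with earlier results of these data known; 1 named gene in each of 2 lists is not reported here. Inhbb, Foxo1, Crisp1, Pax8, Hsd3b1 and Hsd17b3 were named after their values were seen, as were the minor Clu and Wt1 transcripts. Intervals on single genes are 95% and not adjusted. Counting error is that of Poisson counts alone.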

Additional observations from a re-analysis of the deposited data

How the results depend on the processing

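Under all 22 alternatives to the gene fit, 0 of the 10 Sertoli genes were called, and likewise 0 of their transcripts under the 9 alternatives to the transcript fit. Between the genotypes, deviations of same-numbered mice correlated at 0.177, -0.0048 and 0.199, and those of differently numbered mice at -0.235 to 0.0565. The labels do not say that the mouse number pairs the animals, and pairing was not tested. As a block the mouse number gave a smallest edgeR adjusted p of 0.132 among the 10 and called 331 genes in all. It called 4 genes of the wider lists (Cldn3 at 0.0274 and Esr1 at 0.00891 joined) and changed no other call named here. With the GC offset, added after seeing the data, the block called 251 and 4. Against 119 genes called in all, no filter gave 180, DESeq2 213, log2(TPM + 1) 49, log2(TPM + 0.1) 46, log2(TPM + 1) unfiltered 7 and centred 52; leaving out 1 mouse gave 67 to 166. Against 2 in the wider lists, voom gave 1, the 4 TPM scales 0, leaving out both Nsun7-/- mouse 3 and WT mouse 1 gave 1, and leaving out 1 mouse gave 0 to 2.

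Some values changed sign. On log2(TPM + 1), filtered or not, Sox9 was at 0.15, Gata1 0.033, Rhox5 0.23, Cldn11 0.27, Inha 0.13, Dhh 0.021, Clu 0.078, Tyro3 0.096 and Ncam1 0.086; with a pseudocount of 0.1 they were, in this order, 0.15, 0.034, 0.24, 0.28, 0.13, 0.022, 0.078, 0.097 and 0.099. Centred TPM put Wt1 at -0.020. Without both ends of the first component Sox9 was at 0.026, Rhox5 0.060, Cldn11 0.079 and Inha 0.045. With the GC offset and without Nsun7-/- mouse 3, Rhox5 was at 0.055, Cldn11 0.040 and Inha 0.064. Wt1-204 was at -0.0041 with RLE scaling and -0.0085 unfiltered. Leaving out 1 mouse at a time, Wt1 ran from -0.012 to 0.021, Rhox5 from -0.23 to 0.071, Cldn11 from -0.15 to 0.059, Inha from -0.37 to 0.033, Wt1-204 from -0.049 to 0.056 and the Wt1 share without KTS from -0.038 to 6.69 points. The cause of these changes was not tested. With 3 mice per genotype the intervals of the 10 genes, about 0.2 to 0.4 on the log2 scale to each side, limit what could be called.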
